A study of Mus musculus with 12 samples.

Results

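The aminoacyl-tRNA synthetases are the enzymes that join each amino acid to its tRNA. Members were taken by symbol from the protein-coding genes of the count table: a 1-letter amino acid code followed by ars with no suffix or with 1, 2 or 3, together with Eprs, Farsa and Farsb. This rule used no measured value and found 37 genes of 56748 in the table, of which 20 encode cytosolic enzymes and 17 encode mitochondrial enzymes, marked by the suffix 2. All 37 passed the filter on low counts and were tested with 16465 genes in all.

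The study sequenced RNA of 10T1/2 cells (written CH310T1/2 in the sample records, genotype WT), an established mouse mesenchymal progenitor line, in 12 libraries, 4 in each of 3 groups. Cells in all groups were kept in suspension for 1 h, in 0.5% serum by the sample records and without serum by the study's methods, and then cultured for 18 h on hydrogels with a stiffness of 12 kPa that carried a coat of 0.05 mg/mL type I collagen. The collagen was polymerized alone (col1) or with 30 nM recombinant aortic carboxypeptidase-like protein, a collagen-binding protein of the extracellular matrix (col1-ACLP). In col1-ACLP+SB, cells on the same ACLP coat received SB431542, an inhibitor of TGFβ receptor 1, at seeding. No group received the inhibitor on collagen without ACLP, and both comparisons with col1 share the same 4 col1 libraries.

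Each synthetase recognizes 1 amino acid, activates it with ATP and transfers it to the matching tRNA, which then carries it to the ribosome. Nearly all mammalian mitochondrial synthetases are nuclear gene products separate from their cytosolic counterparts, whereas Gars and Kars each encode both forms from 1 gene. Eprs encodes a fused glutamyl- and prolyl-tRNA synthetase, and Farsa and Farsb encode the subunits of the cytosolic phenylalanyl enzyme. Several cytosolic enzymes are held together in the multi-tRNA synthetase complex, and many cytosolic synthetase genes are known targets of ATF4, a transcription factor of the amino acid response that binds C/EBP-ATF response elements.

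Promoters of 27 members were matched by symbol in RefSeq, 13 cytosolic and 14 mitochondrial, as the 250 bases before and 50 bases after the annotated start in GRCm38.p6. They were searched on both strands for TGATGNAA, the core of the C/EBP-ATF response element. The letters were present in 5 of 13 cytosolic promoters (Aars, Gars, Iars, Tars and Yars), in 0 of 14 mitochondrial promoters and in 1219 of 27025 genes in all (4.51%). Among the 6 cytosolic members with a promoter here that later passed the fold threshold, 4 held the letters, and among the other 7 cytosolic members 1 did. The 4 promoters printed first are those of the members that rose past the fold threshold and held the letters, and capitals mark each match, which lay on the minus strand of the promoter and so reads TTNCATCA.
Aars, chr8:111033592-111033891, plus strand: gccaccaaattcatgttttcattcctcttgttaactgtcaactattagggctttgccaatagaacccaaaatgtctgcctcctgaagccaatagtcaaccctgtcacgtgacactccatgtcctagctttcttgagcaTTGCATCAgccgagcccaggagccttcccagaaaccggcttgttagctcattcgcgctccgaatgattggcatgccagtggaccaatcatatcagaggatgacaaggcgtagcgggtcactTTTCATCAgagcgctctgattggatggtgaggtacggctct
Iars, chr13:49681880-49682179, plus strand: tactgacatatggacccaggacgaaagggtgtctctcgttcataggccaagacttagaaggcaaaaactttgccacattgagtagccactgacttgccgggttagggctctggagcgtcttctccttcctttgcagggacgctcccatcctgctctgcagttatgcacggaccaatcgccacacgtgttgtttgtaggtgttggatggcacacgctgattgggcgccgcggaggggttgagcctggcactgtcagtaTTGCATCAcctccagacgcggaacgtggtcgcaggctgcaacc
Tars, chr15:11399609-11399908, minus strand: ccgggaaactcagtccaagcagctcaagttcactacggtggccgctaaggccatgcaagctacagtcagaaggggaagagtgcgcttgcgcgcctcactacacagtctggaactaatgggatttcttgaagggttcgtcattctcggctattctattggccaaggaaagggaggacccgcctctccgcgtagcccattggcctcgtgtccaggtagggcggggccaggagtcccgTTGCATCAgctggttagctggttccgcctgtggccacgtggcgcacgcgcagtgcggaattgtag
Gars, chr6:55037751-55038050, plus strand: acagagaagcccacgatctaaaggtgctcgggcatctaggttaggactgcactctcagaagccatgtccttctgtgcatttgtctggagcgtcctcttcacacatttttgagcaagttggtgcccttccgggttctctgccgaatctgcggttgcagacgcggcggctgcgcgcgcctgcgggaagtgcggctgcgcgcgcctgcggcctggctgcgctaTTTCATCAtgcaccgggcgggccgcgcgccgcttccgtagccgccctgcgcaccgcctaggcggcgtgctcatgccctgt
The matches began at position -112 and 9 from the start in Aars, at 7 in Iars, at -15 in Tars and at -30 in Gars. For contrast, the promoter of Iars2, the mitochondrial isoleucyl enzyme, held no TGATGNAA, and capitals mark instead a match to the consensus of NRF1, a regulator of nuclear genes for mitochondrial proteins, again on the minus strand.
Iars2, chr1:185329352-185329651, minus strand: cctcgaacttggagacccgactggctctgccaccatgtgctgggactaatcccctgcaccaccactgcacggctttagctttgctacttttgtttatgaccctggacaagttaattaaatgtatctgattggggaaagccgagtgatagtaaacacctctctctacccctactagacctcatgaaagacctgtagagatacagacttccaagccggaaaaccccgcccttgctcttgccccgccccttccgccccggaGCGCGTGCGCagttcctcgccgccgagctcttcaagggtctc
The NRF1 consensus, searched on both strands with its middle base left free, occurred in 3 of 13 cytosolic promoters (Farsb, Kars and Tars), 2 of 14 mitochondrial promoters (Iars2 and Mars2) and 5.19% of all genes, overlapping none of the TGATGNAA matches. The E-box CACGTG occurred in 4 cytosolic promoters (Aars, Farsb, Iars and Tars), in 1 mitochondrial promoter (Ears2) and in 8.09% of all genes. Split by the fold threshold as above, it was held by 3 of 6 and 1 of 7 cytosolic promoters, and the NRF1 consensus by 1 of 6 and 2 of 7. These matches describe letters in a reference window, and binding was not measured.

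Totals per library ran from 29246154 to 52201922 counts. Replicates differed by more than sampling noise (chi-square over its degrees of freedom between 7.49 and 19.7), and the common dispersion had a square root of 0.153. The study calls the libraries of a group biological replicates, and what separated them (cultures, days) is not given in the sources used here. The col1 replicate 2 library stood apart on the first principal component, at -86.7 against -11.1 to -8.97 for the other 3 col1 libraries. Mesenchymal markers were high in every library, 8 of 8 from 17.9 CPM for Thy1 to 24445 CPM for Col1a1. Pecam1, Cdh5, Kdr, Epcam, Ptprc, Adgre1, Adipoq and Plin1 stayed at or under 0.309 CPM, while Tek reached 9.57, Cdh1 3.84 and Cd68 10.0 CPM. Some marker sums differed between groups without overlap. The sum of the 8 mesenchymal markers, most of it Col1a1 and Col1a2, was 25011 to 25900 CPM on col1, 34826 to 43070 CPM on col1-ACLP and 31787 to 37315 CPM on col1-ACLP+SB. The sum of the 3 haematopoietic markers, all but a trace of it Cd68, was 9.14 to 10.0, 5.32 to 8.72 and 7.11 to 9.80 CPM in the same order. The sum of the 4 endothelial markers, nearly all Tek, was 5.06 to 8.30, 7.52 to 9.85 and 4.30 to 6.41 CPM. The part of these shifts in the synthetase values was not tested. Levels are given as CPM, the counts of each library scaled to a common total with TMM factors.

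On col1-ACLP, most cytosolic synthetase mRNAs were higher than on col1, and mitochondrial synthetase mRNAs did not pass the test. Of the 20 cytosolic members, 16 rose and 0 fell at an adjusted p under 0.05, where 9.52% of all genes tested rose and 8.41% fell. The median log2FC was 0.44 for the cytosolic members and -0.0099 for all genes tested, and the cytosolic values ran from 0.03 for Qars to 0.87 for Aars. Both an adjusted p under 0.05 and a log2FC above 0.58, the fold threshold, were reached by 9 cytosolic members, against 2.61% of all genes tested. In 17 of 20 the 4 col1-ACLP libraries lay wholly above the 4 col1 libraries, which held for 10.9% of all genes. Of the 17 mitochondrial members, 0 rose and 0 fell by edgeR, with a median log2FC of 0.04. DESeq2 and limma-voom also called 0 of them, and at an unadjusted p under 0.05 edgeR had 2 higher and 0 lower. In bulk RNA, fewer cells of a type and less RNA per cell cannot be told apart.

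The summed level of the 20 cytosolic mRNAs was 2245 ± 30.3 CPM on col1 (SD, n = 4), 3274 ± 181 CPM on col1-ACLP and 2894 ± 115 CPM on col1-ACLP+SB. The 3 groups did not overlap in this sum, with 2204 to 2275 CPM on col1, 3115 to 3534 CPM on col1-ACLP and 2787 to 3051 CPM on col1-ACLP+SB. The sum over all 17 mitochondrial members was 749 ± 224, 686 ± 55.1 and 691 ± 24.1 CPM in the same order. Without Lars2, which was far higher in 1 col1 library than in the rest, the sum over the other 16 was 370 ± 5.20, 372 ± 6.94 and 381 ± 7.28 CPM. Per kilobase of gene model on col1, the cytosolic members had a median level of 19.5 CPM per kb, from 8.50 for Cars to 44.5 for Nars. The mitochondrial members had a median of 4.15 CPM per kb on col1, from 0.537 for Mars2 to 34.2 for Lars2, with Hars2 next at 12.2. These levels depend on the length of the gene model, which was 11294 bases for Mars2. In mean CPM on col1, Mars2 (6.06) was above Pars2 (5.66) and Nars2 (4.99).

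**Figure D1:**
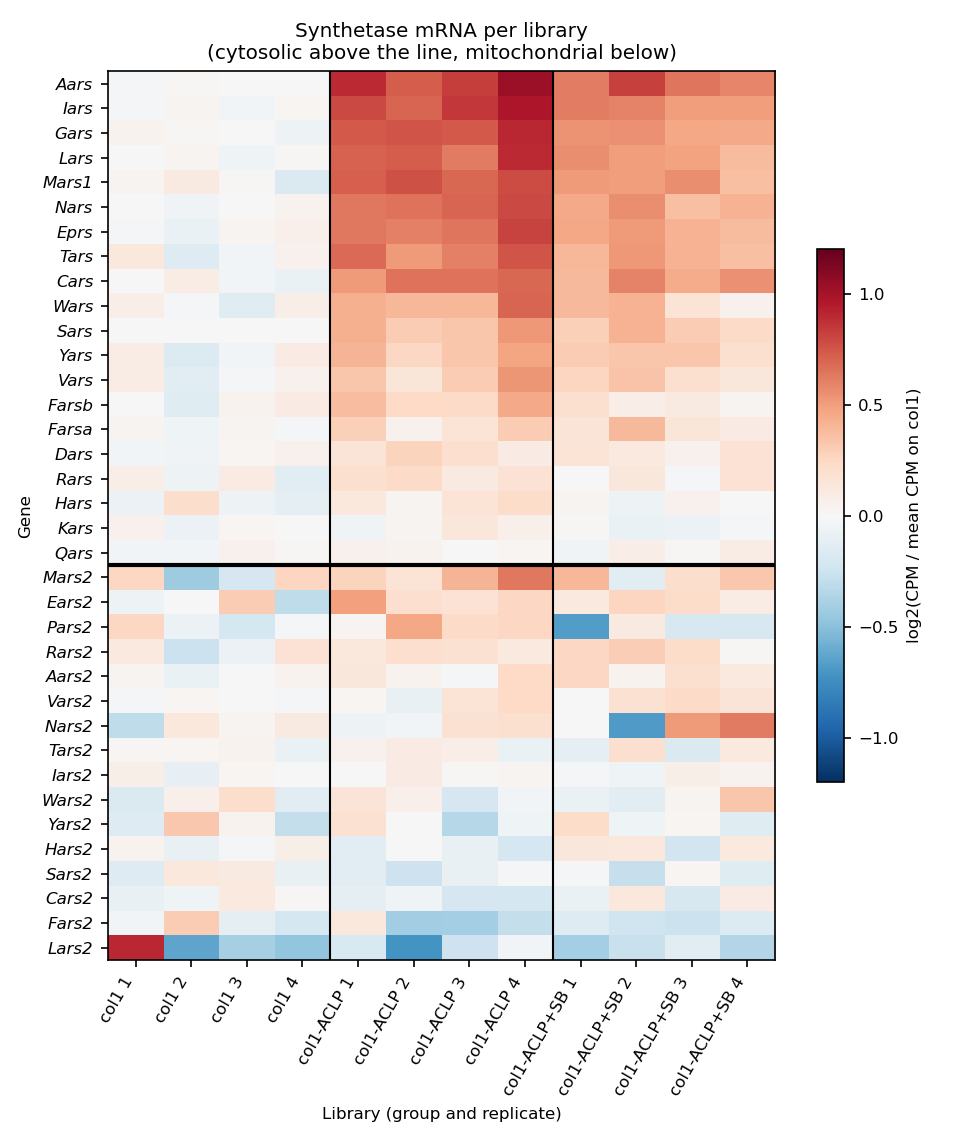
Heat map of log2(CPM divided by the mean CPM on col1) for 36 synthetase genes (rows, cytosolic above the line and mitochondrial below) in 12 libraries (columns, 4 per group). The upper 9 rows are red in all 8 libraries with ACLP and mostly deeper in the col1-ACLP libraries, whereas the mitochondrial rows show no block by group, and Lars2 stands out in col1 replicate 1.

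The free class II enzymes, which work outside the complex, held the member with the largest log2FC. Aars, on chromosome 8 (111759776 to 111784296, plus strand, GRCm39) and encoding alanyl-tRNA synthetase, was at 249, 253, 249.8 and 251 CPM in the 4 col1 libraries, 465, 416, 447 and 509.9 CPM in the col1-ACLP libraries and 383, 444, 391 and 377 CPM in the col1-ACLP+SB libraries. All col1-ACLP libraries were above all col1 libraries, with the col1-ACLP+SB libraries between 377 and 444 CPM, and Aars rose by a log2FC of 0.87 ± 0.06 (SE, 1.83-fold, adjusted p = 1.26e-11 by the quasi-likelihood test of edgeR, Benjamini-Hochberg adjusted over all genes tested). Gars, on chromosome 6 (55014992 to 55056485) and encoding the glycyl enzyme of both compartments, was at 127, 124, 123 and 118 CPM in the 4 col1 libraries, 206, 207, 205 and 229.8 CPM in the col1-ACLP libraries and 179, 180.4, 169.6 and 169 CPM in the col1-ACLP+SB libraries. Its 3 groups did not overlap, and col1-ACLP replicate 4 was the highest library. The log2FC of Gars was 0.78 ± 0.05 (adjusted p = 1.19e-11 by edgeR), the smallest p-value among the members. Nars, encoding asparaginyl-tRNA synthetase and the most abundant cytosolic member per kilobase on col1, was at 193, 189, 194 and 199 CPM in the 4 col1 libraries, 301, 304, 315 and 335 CPM in the col1-ACLP libraries and 266, 285, 249 and 259 CPM in the col1-ACLP+SB libraries. Its groups did not overlap either, and its log2FC was 0.70 ± 0.05. Tars, encoding the threonyl enzyme, was at 124, 103, 111 and 118 CPM in the 4 col1 libraries, 183, 163, 173 and 193 CPM in the col1-ACLP libraries and 150.2, 164, 152 and 147 CPM in the col1-ACLP+SB libraries. Every Tars value on col1-ACLP lay above every value on col1, with a log2FC of 0.64 ± 0.06.

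Among the enzymes of the multi-tRNA synthetase complex, 5 of 8 rose and 4 passed the fold threshold, with a median log2FC of 0.43, beside 11 of 12 and 5 for the free cytosolic members, with a median of 0.44. Iars, on chromosome 13 (49835576 to 49887743) and encoding isoleucyl-tRNA synthetase, was at 93.7, 97.6, 93.5 and 97.0 CPM in the 4 col1 libraries, 166, 155, 172 and 187 CPM in the col1-ACLP libraries and 146, 145, 136 and 135 CPM in the col1-ACLP+SB libraries. The lowest col1-ACLP library, at 155 CPM, was above the highest col1-ACLP+SB library, at 146 CPM, and both groups were above col1. Iars had a log2FC of 0.83 ± 0.06 (adjusted p = 2.53e-11 by edgeR). Lars, encoding the leucyl enzyme, was at 121, 124, 117 and 122 CPM in the 4 col1 libraries, 197, 200.0, 186 and 225 CPM in the col1-ACLP libraries and 178, 171, 169 and 157 CPM in the col1-ACLP+SB libraries. Its log2FC was 0.74 ± 0.06, with no overlap between any groups. Mars1, encoding the methionyl enzyme, was at 96.4, 102, 94.9 and 83.5 CPM in the 4 col1 libraries, 155, 159, 152 and 162 CPM in the col1-ACLP libraries and 134, 133, 139 and 121 CPM in the col1-ACLP+SB libraries. The col1 replicate 4 library was the lowest for Mars1, and its log2FC was 0.74 ± 0.06. Eprs was at 193, 184, 199.7 and 204 CPM in the 4 col1 libraries, 302, 296, 304 and 343 CPM in the col1-ACLP libraries and 268, 278, 261 and 255 CPM in the col1-ACLP+SB libraries. Its groups did not overlap, and its log2FC was 0.67 ± 0.05.

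Cars, a free class I enzyme that charges cysteine, was at 56.3, 59.6, 54.9 and 53.1 CPM in the 4 col1 libraries, 79.6, 88.0, 87.7 and 90.3 CPM in the col1-ACLP libraries and 73.5, 84.3, 76.3 and 81.7 CPM in the col1-ACLP+SB libraries. Every library with ACLP was above every col1 library, and the log2FC was 0.63 ± 0.06 (adjusted p = 2.67e-08 by edgeR), the smallest of the 9 past the fold threshold. By catalytic class, 7 of 9 class I and 8 of 10 class II cytosolic members rose, and Eprs, which holds a domain of each class, was counted in neither.

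The other 7 cytosolic members that rose on col1-ACLP stayed under the fold threshold. Wars (tryptophan) had a log2FC of 0.49, Sars (serine) 0.40, Yars (tyrosine) 0.37 and Vars (valine) 0.33. The phenylalanyl subunits Farsb and Farsa had a log2FC of 0.33 and 0.20, and Dars (aspartate), a member of the complex, had 0.18. The calls for Farsa (adjusted p = 0.0314 by edgeR) and Dars (adjusted p = 0.0203 by edgeR) were lost when single libraries were left out, with an adjusted p up to 0.110 without col1-ACLP replicate 1 for Farsa and up to 0.104 without col1-ACLP replicate 2 for Dars. With library size alone in place of TMM both calls were also lost (adjusted p = 0.102 for Farsa and 0.114 for Dars by edgeR), which left 14 cytosolic members higher.

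Kars, Qars, Rars and Hars did not pass edgeR's test on col1-ACLP. Kars, encoding the lysyl enzyme of both compartments, was at 135, 125, 132 and 129.8 CPM in the 4 col1 libraries, 126, 133, 144 and 136 CPM in the col1-ACLP libraries and 132, 124, 124 and 128 CPM in the col1-ACLP+SB libraries. Qars, encoding the glutaminyl enzyme, which has no mitochondrial partner among the members, was at 117, 117, 124 and 121 CPM in the 4 col1 libraries, 124, 123, 120.2 and 121 CPM in the col1-ACLP libraries and 116, 126, 121 and 127 CPM in the col1-ACLP+SB libraries. The groups overlapped for both genes, and the log2FC was 0.05 for Kars (95% interval -0.06 to 0.15) and 0.03 for Qars (-0.07 to 0.13). These intervals lie under the cytosolic median of 0.44, as do those of Rars (arginine, log2FC 0.18, 0.04 to 0.31) and Hars (histidine, log2FC 0.14, -0.01 to 0.28). Hars was at 68.8 CPM in col1 replicate 2 and from 55.3 to 56.9 CPM in the other 3 col1 libraries, and without that library its log2FC was 0.22 (adjusted p = 0.0209 by edgeR). Rars, whose col1-ACLP libraries were all above col1, had an adjusted p of 0.0615 by edgeR, 0.0428 by DESeq2 and 0.0451 by limma-voom, and 0.0413 by edgeR without col1 replicate 3. Kars, Qars and Rars are all enzymes of the complex.

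**Figure D2:**
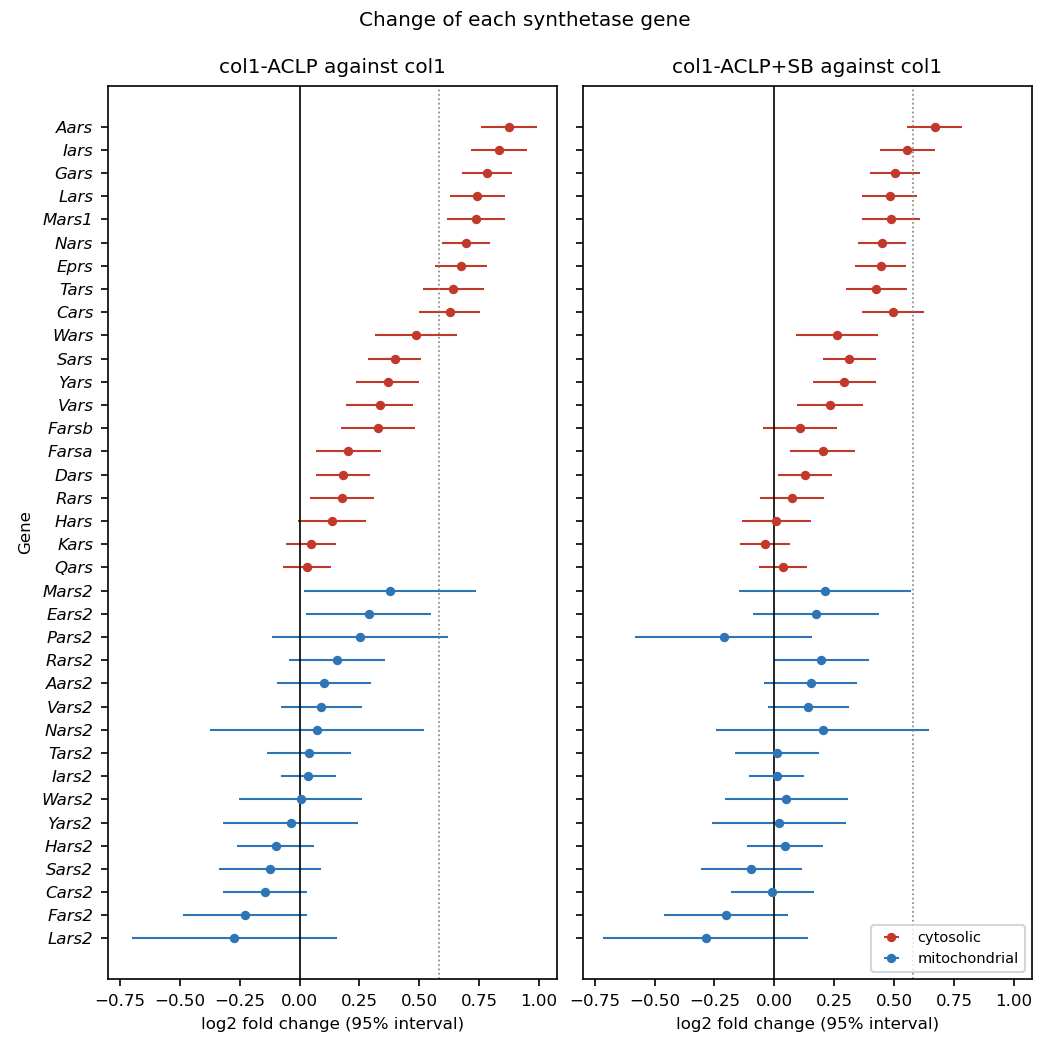
Log2 fold change with its 95% interval (x axis) for 36 synthetase genes (y axis) on col1-ACLP against col1 (left) and col1-ACLP+SB against col1 (right), cytosolic in red and mitochondrial in blue, with a dotted line at 0.58. On the left 9 cytosolic genes lie past the line, from 0.63 for Cars to 0.87 for Aars, and on the right only Aars does, at 0.67. The panels share the col1 libraries.

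Mitochondrial members were followed beside the cytosolic enzyme of the same amino acid. Aars2, the partner of Aars, was at 17.6, 16.3, 17.1 and 17.7 CPM in the 4 col1 libraries, 18.9, 17.6, 16.8 and 20.3 CPM in the col1-ACLP libraries and 20.3, 17.6, 19.6 and 18.6 CPM in the col1-ACLP+SB libraries. Iars2 was at 85.1, 75.4, 82.2 and 81.0 CPM in the 4 col1 libraries, 80.7, 86.7, 81.8 and 82.6 CPM in the col1-ACLP libraries and 80.1, 77.9, 84.7 and 83.1 CPM in the col1-ACLP+SB libraries. Both genes overlapped between all groups, with a log2FC on col1-ACLP of 0.10 and 0.04. Nars2 was at 4.05, 5.43, 5.10 and 5.37 CPM in the 4 col1 libraries, 4.77, 4.87, 5.64 and 5.70 CPM in the col1-ACLP libraries and 4.96, 3.12, 7.12 and 7.67 CPM in the col1-ACLP+SB libraries. Tars2 was at 31.4, 31.6, 32.0 and 29.5 CPM in the 4 col1 libraries, 32.4, 33.3, 33.0 and 29.4 CPM in the col1-ACLP libraries and 28.8, 35.7, 27.5 and 33.7 CPM in the col1-ACLP+SB libraries. Cars2 was at 28.5, 29.3, 32.8 and 30.6 CPM in the 4 col1 libraries, 27.9, 29.2, 26.4 and 26.2 CPM in the col1-ACLP libraries and 28.6, 33.2, 26.5 and 32.4 CPM in the col1-ACLP+SB libraries. The groups overlapped for each of these 3 genes, with a log2FC of 0.07, 0.04 and -0.14. Mars2, the least abundant member per kilobase, was at 7.20, 4.50, 5.28 and 7.25 CPM in the 4 col1 libraries, 7.30, 6.80, 8.05 and 9.43 CPM in the col1-ACLP libraries and 7.97, 5.54, 7.00 and 7.57 CPM in the col1-ACLP+SB libraries. Ears2, the glutamyl enzyme, was at 10.5, 11.0, 13.6 and 8.90 CPM in the 4 col1 libraries, 15.5, 12.7, 12.4 and 13.1 CPM in the col1-ACLP libraries and 11.9, 13.1, 12.8 and 11.7 CPM in the col1-ACLP+SB libraries. Pars2, the prolyl enzyme, was at 6.73, 5.40, 4.89 and 5.63 CPM in the 4 col1 libraries, 5.77, 7.82, 6.65 and 6.73 CPM in the col1-ACLP libraries and 3.56, 6.11, 4.96 and 4.96 CPM in the col1-ACLP+SB libraries. These 3 low mRNAs had the highest estimates among the mitochondrial members, at 0.38, 0.29 and 0.25, and none passed the test (adjusted p = 0.152, 0.132 and 0.395 by edgeR). Ears2 passed when col1 replicate 3, its highest col1 library, was left out (log2FC 0.40, adjusted p = 0.0335 by edgeR), and Fars2 was called lower without col1-ACLP replicate 1, at a log2FC of -0.37 (adjusted p = 0.0451 by edgeR).

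For the mitochondrial members, 13 of 17 intervals on col1-ACLP against col1 excluded the cytosolic median of 0.44, which was taken as a fixed value. The 13 include Lars2, whose estimate depended on col1 replicate 1, as given below. The 4 intervals that held it belonged to Ears2, Mars2, Nars2 and Pars2, each at or under 13.4 CPM on col1-ACLP on average. The median standard error was 0.12 for mitochondrial and 0.06 for cytosolic members, so a small change in a mitochondrial mRNA was less detectable. Fars2, Hars2, Rars2, Sars2, Vars2, Wars2 and Yars2 had a log2FC from -0.23 for Fars2 to 0.16 for Rars2.

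Lars2, on chromosome 9 (123195992 to 123291731, plus strand) and encoding the mitochondrial leucyl enzyme, was at 711, 245, 287 and 273 CPM in the 4 col1 libraries, 333, 231, 320.1 and 372 CPM in the col1-ACLP libraries and 286, 315, 344 and 298 CPM in the col1-ACLP+SB libraries. The col1 replicate 1 library lay above all the other 11 libraries, which ran from 231 to 372 CPM. The same library had the highest level of the 18S ribosomal RNA gene Rn18s-rs5, at 5757 CPM against 1741 to 3593 CPM in the other libraries, and the part of this in the Lars2 value was not tested. Lars2 had a log2FC of -0.27 on col1-ACLP (adjusted p = 0.440 by edgeR), and of 0.23 without col1 replicate 1 (adjusted p = 0.144 by edgeR).

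**Figure D3:**
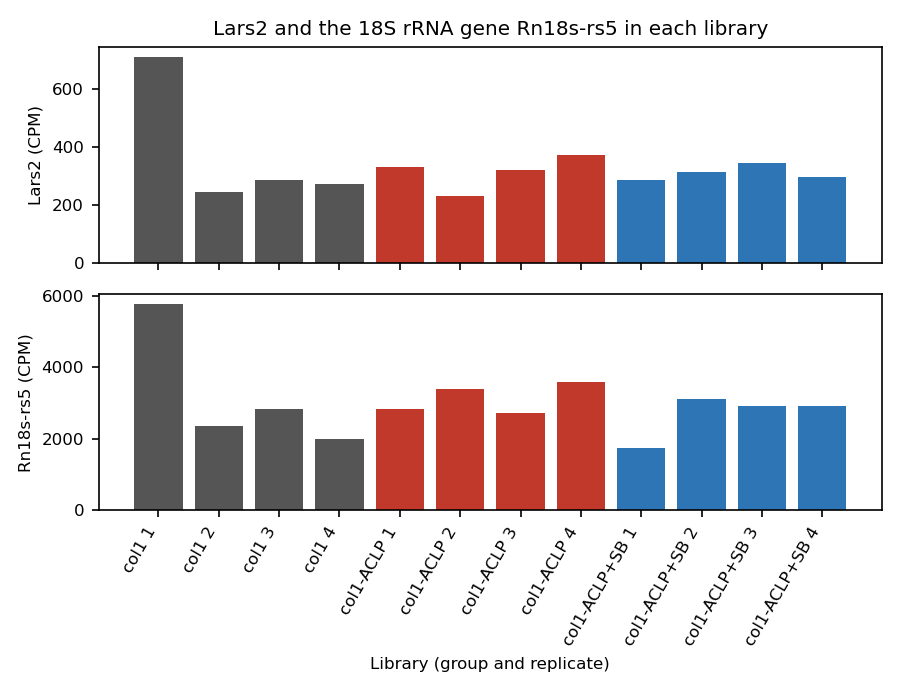
Level of Lars2 (top) and of the 18S ribosomal RNA gene Rn18s-rs5 (bottom) in CPM for each of 12 libraries, as bars from 0 coloured by group. The col1 replicate 1 bar is the tallest in both panels, at 711 and 5757 CPM.

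Within each library, the log2 ratio of the cytosolic to the mitochondrial enzyme was then taken for 18 pairs, with Eprs paired to Ears2 and Pars2, and Farsa and Farsb both paired to Fars2. A ratio within a library does not depend on its scaling factor. On col1-ACLP the ratio was above col1 on average in 18 of 18 pairs, with a median difference of 0.46, and in 9 pairs all 4 col1-ACLP libraries were above all 4 col1 libraries. Shares over other gene pairs were not computed for any comparison. Each ratio holds a cytosolic mRNA whose own change is given above, so these counts are no separate result. The Iars to Iars2 ratio was 0.24 ± 0.10 on col1 (SD, n = 4), 1.03 ± 0.14 on col1-ACLP and, with the inhibitor, 0.78 ± 0.11. The Aars to Aars2 ratio was 3.87 ± 0.06, 4.64 ± 0.07 and 4.38 ± 0.18 in the same order, and the Cars to Cars2 ratio was 0.88 ± 0.14, 1.65 ± 0.13 and 1.39 ± 0.09. In these 3 pairs both groups with ACLP lay wholly above col1. For the 9 pairs without overlap between col1-ACLP and col1, the exact two-sided permutation test gave p = 0.0286, the smallest that the 35 splits of 8 libraries allow, and 0.0964 after Benjamini-Hochberg adjustment over 54 comparisons, so no pair passed the correction. The Lars to Lars2 ratio differed most, by 0.88, and by 0.53 without col1 replicate 1. The Rars to Rars2 ratio differed by 0.01.

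**Figure D4:**
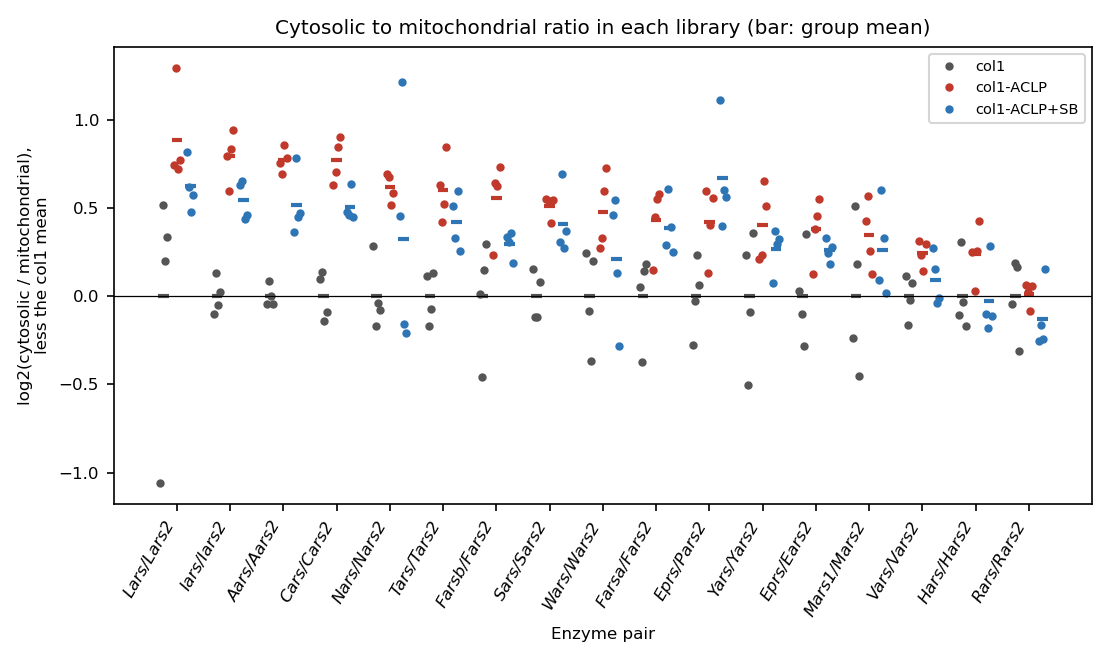
Log2 ratio of the cytosolic to the mitochondrial enzyme, less its mean on col1 (y axis), for 17 pairs (x axis), with a point for each library and a bar for the mean of 4 libraries in each group. The col1-ACLP means lie above 0 in all 17 pairs drawn, from 0.01 for Rars and Rars2 to 0.88 for Lars and Lars2, where col1 replicate 1 lies far below the other col1 points.

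With SB431542 on col1-ACLP, cytosolic synthetase mRNAs were still above col1 in most cases. Of 20 cytosolic members 13 rose and 0 fell against col1, where 4.6% of all genes tested rose and 4.54% fell, with a median log2FC of 0.30 beside 0.0046 for all genes. Aars alone passed the fold threshold, at 0.67 ± 0.06 (adjusted p = 3.84e-09 by edgeR), against 1.27% of all genes by the same 2 criteria. Iars had a log2FC of 0.56, Gars 0.50, Cars 0.50, Mars1 0.49, Lars 0.48, Nars 0.45, Eprs 0.44 and Tars 0.43. The rest of the 13 were Sars at 0.31, Yars at 0.29, Wars at 0.26 and Vars at 0.23. Wars (adjusted p = 0.0477 by edgeR) lost its call under most alternatives, up to an adjusted p of 0.169 without col1 replicate 3. Vars (adjusted p = 0.0273 by edgeR) lost its call under some, up to 0.105 without col1 replicate 2. In 13 cytosolic members all col1-ACLP+SB libraries were above all col1 libraries, against 6.7% of all genes. Of 17 mitochondrial members 0 rose and 0 fell by edgeR, DESeq2 or limma-voom, nor did any at an unadjusted p under 0.05 by edgeR. Their median log2FC was 0.04, and 9 of the 17 intervals excluded the cytosolic median of 0.30, that of Lars2 among them. The pair ratio was above col1 on average in 16 of 18 pairs, and without overlap in 7.

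Compared with col1-ACLP directly, col1-ACLP+SB gave lower values for 6 of 20 cytosolic members and higher values for 0, where 0.905% of all genes tested fell and 0.571% rose. The 6 were Gars (log2FC -0.28 ± 0.05, adjusted p = 0.00350 by edgeR), Iars (-0.28 ± 0.06), Lars (-0.26 ± 0.06), Mars1 (-0.25 ± 0.06), Nars (-0.25 ± 0.05) and Eprs (-0.23 ± 0.05). For each of these 6, and for Farsb, all col1-ACLP+SB libraries were under all col1-ACLP libraries, against 4.52% of all genes. Of the cytosolic members 0 passed both the test and a fall of 0.58, as 0.0425% of all genes did. This comparison shares the 4 col1-ACLP libraries with that of col1-ACLP against col1. The median log2FC was -0.17 for cytosolic members, 0.04 for mitochondrial members and 0.0049 for all genes. The pair ratio was higher on average in 1 of 18 pairs, with a median difference of -0.19. It differed without overlap in 0 pairs, and the smallest p of the exact permutation test was 0.0571. Of the mitochondrial members 0 rose and 0 fell by edgeR, DESeq2 or limma-voom, with 1 (Pars2) lower at an unadjusted p under 0.05 by edgeR. Aars had a log2FC of -0.20 and Tars of -0.21, neither past the test (adjusted p = 0.0699 and 0.0800 by edgeR), though both were called lower by DESeq2 (adjusted p = 0.0194 and 0.0262). The count of 6 fell to 2 without col1-ACLP replicate 4, the library with the highest cytosolic sum, and to 3 without col1-ACLP+SB replicate 4, the one with the lowest sum of its group.

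Some members share exon bases with other genes in GENCODE vM39, 26 of 37 with any gene and 8 over more than 1000 bases with a protein-coding gene. The gene models that were counted differ from this release. Their lengths for Mars1 (3423 bases) and Yars2 (3149 bases) are below the shared bases given here, so such overlaps need not hold in the counts. The counting tool and its strand setting are not given in the sources used here. Where the counted models do overlap, reads from such pairs may not be told apart. Exosc6, whose exon lies within 1326 exon bases of Aars on the same strand, had 0 counts in all 12 libraries. Mars1 shares 3576 bases with Ddit3, a stress-response factor on the other strand, which had a log2FC of 0.08 on col1-ACLP (adjusted p = 0.626 by edgeR). Hars and Hars2, transcribed from opposite strands, share 198 bases. Of the mitochondrial members, Yars2 shares 3594 bases with Dnm1l, a mitochondrial fission gene that rose by a log2FC of 0.31 (adjusted p = 0.000107 by edgeR), while Yars2 itself had a log2FC of -0.04.

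Genes that act around the synthetases were read from the same fit, in which 9.52% of all genes tested rose and 8.41% fell on col1-ACLP, and 4.6% and 4.54% on col1-ACLP+SB against col1. Of 7 scaffold and elongation factor partners of the complex, 3 rose and 0 fell on col1-ACLP, with a median log2FC of -0.00015. These were Eef1e1 (log2FC 0.45) and Aimp2 (0.42), scaffold proteins of the complex, and Eef1g (0.21), a subunit of the elongation factor that recharges Eef1a. With the inhibitor, Eef1e1 rose against col1 (0.35) and the others did not pass. Of 12 factors for indirect charging, editing and related steps, 0 rose and 0 fell by edgeR in any comparison, with 1 higher and 1 lower on col1-ACLP at an unadjusted p under 0.05 and 0 in the others.

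Of 19 tested genes of tRNA maturation and export, 1 rose on col1-ACLP and 0 fell, with a list median of 0.03, a share under the 9.52% of all genes that rose. The gene was Xpot, the export receptor that carries tRNA from the nucleus, at 144 ± 6.19 CPM on col1 (SD, n = 4), 239 ± 11.0 CPM on col1-ACLP and 199.7 ± 9.18 CPM on col1-ACLP+SB. Its log2FC was 0.74 ± 0.05 on col1-ACLP (adjusted p = 3.91e-11 by edgeR), 0.48 with the inhibitor, and -0.26 between the latter groups (adjusted p = 0.00678 by edgeR), values in the range of the cytosolic synthetases.

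The mitochondrial translation machinery was read for comparison. Of 9 mitochondrial translation factors, 0 rose and 0 fell by edgeR on col1-ACLP, with 2 higher at an unadjusted p under 0.05, and Tsfm, the exchange factor of the mitochondrial elongation factor Tu, rose on col1-ACLP+SB against col1 (log2FC 0.40, adjusted p = 0.0106 by edgeR). Of 77 tested mitochondrial ribosomal protein genes, 0 rose and 2 fell on col1-ACLP, Mrps6 (log2FC -0.27) and Mrpl4 (-0.28), with a list median of 0.05. Both counts are under the shares of all genes, 9.52% and 8.41%. With the inhibitor 1 rose against col1, Mrpl54 (0.24).

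Of 6 reference genes of the amino acid and integrated stress response, 5 rose on col1-ACLP, with a list median of 0.92. Asns, which makes asparagine, had a log2FC of 1.33 ± 0.06, Trib3, a pseudokinase, 1.91 ± 0.10, and Chac1, a glutathione-degrading enzyme, 1.50 ± 0.13. Atf4 mRNA itself had a log2FC of 0.50 ± 0.05 and Sesn2, a stress-inducible leucine sensor, 0.28 ± 0.07, whereas Ddit3 did not pass. On col1-ACLP+SB 4 of the 6 rose against col1, and Asns fell against col1-ACLP (log2FC -0.38 ± 0.06, adjusted p = 0.000496 by edgeR). This list was written with earlier results of these data known, so its direction is no independent evidence.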

How the data were processed

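Poly(A) RNA of 12 libraries, 4 per group, was sequenced. The authors deposited read counts for each gene without normalization. The submitters' notes name HISAT2 and the mouse build mm10, the study's methods give GRCm39, and the gene coordinates in the table were those of GRCm39. The counting tool, strand setting and treatment of multiply mapped reads are not given in the sources used here.

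Tests used edgeR 4.0.16 under R 4.3.3 (filterByExpr, TMM, glmQLFit and glmQLFTest, group as the only term, all 12 libraries), with Benjamini-Hochberg adjustment over 16465 genes. A gene rose or fell at an adjusted p under 0.05, and passed the fold threshold beyond 0.58 on the log2 scale. Libraries held at least 29246154 counts, and intervals cover counting error and replicate spread but no error of mapping. Ratios of pairs used log2 CPM with a prior count of 2 and exact permutation tests. Alternatives were RLE size factors, library size alone, other filters, DESeq2 1.42.0, limma-voom (limma 3.58.1), a fold threshold, the 2 groups compared alone, a replicate block and each library left out. Libraries with the same number deviated together with a correlation from -0.0372 to 0.0360 over all genes tested. This measure cannot exclude a shared culture or day that moved only part of the genes. The procedure was tested on simulated data.

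Values in every library are given for members past the fold threshold in any comparison, their mitochondrial partners, Gars, Kars and Qars. The members and gene lists were chosen with earlier results of these data known. Promoters came from RefSeq (GRCm38.p6), where 10 members had no entry, among them Cars, Hars, Hars2, Lars, Nars, Pars2, Rars, Vars and Wars. The result for 1 member is not reported here by name, in text or figures, and it stays in the counts and medians. Protein sequences were not used here.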

Additional observations from a re-analysis of the deposited data

Results flagged for a closer look

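Of 111 groups of 4 libraries (37 genes in 3 groups), 5 held a library whose gap to its neighbor exceeded Dixon's critical share of the group's range, which chance alone gives in about 1 group in 20. Lars2 was at 711 CPM in col1 replicate 1, against 245 to 287 CPM in the other col1 libraries. Hars was at 68.8 CPM in col1 replicate 2, against 55.3 to 56.9 CPM. In col1-ACLP replicate 4, Gars was at 229.8 CPM, against 205 to 207 CPM, and Wars at 79.9 CPM, against 65.0 to 66.3 CPM. Hars2 was at 44.2 CPM in col1-ACLP+SB replicate 3, below 56.6 to 57.3 CPM in the other libraries of that group.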

How the results depend on the processing

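Over 21 alternatives and 37 members in 3 comparisons, 2272 of 2331 values kept their side of the threshold, and 21 gained and 38 lost a call. None of the called values changed sign, while 71 values that were not called did. The fold threshold is not among these 21 and is given apart below. On col1-ACLP against col1, the cytosolic median of 0.44 was 0.39 with library size alone, where 14 rose, and ran from 0.38 to 0.47 with single libraries left out, where the count that rose ran from 15 to 17. With the fold threshold 9 rose against col1 without the inhibitor and 1 with it. The 13 that rose on col1-ACLP+SB at the adjusted p alone ran from 11 to 14 with single libraries left out (median from 0.28 to 0.33). Likewise, the 6 that fell between the groups with ACLP ran from 2 to 7 (median from -0.20 to -0.13), and with the fold threshold 0 fell. The count of mitochondrial members that rose, and of those that fell, on col1-ACLP ran from 0 to 1 with single libraries left out. With no filter on low counts 1 mitochondrial member, Lars2, fell in each comparison with col1 (adjusted p = 1.01e-05 and 2.74e-06 by edgeR), and the cause was not tested. Pairs without overlap ran from 9 to 12 and from 7 to 9 in the comparisons with col1.

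The replicate block left 15 cytosolic members higher on col1-ACLP, 12 on col1-ACLP+SB and 6 lower between the groups with ACLP. It ended the calls for Farsa (adjusted p = 0.0562 by edgeR) on col1-ACLP and Wars (0.0557) on col1-ACLP+SB. The standard errors limit what can be seen in mitochondrial members such as Nars2 and Lars2 (0.22 and 0.21 on col1-ACLP against col1).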
